A study of Homo sapiens with 18 samples.

Results

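The genes described here are NFE2L2, which encodes the transcription factor NRF2, its repressors KEAP1 and BACH1, and 7 genes of detoxification and oxidative stress: NQO1, AKR1B1, AKR1B10, AKR1C1, AKR1C2, AKR1C3 and OSGIN1. They were chosen by symbol, as NRF2, its repressors and classic detoxifying targets, with no threshold on their values but with earlier results of these data known. All 10 were found among the 58302 genes of the deposited count table, and all 10 passed the filter on low counts. Total RNA was sequenced from U87MG, a human cell line grown from a glioblastoma, in 2 control libraries and 2 libraries of cells treated with Erastin (10 μM, 72 h), a compound that blocks cystine uptake through system Xc-. The labels describe the controls as grown normally and name no vehicle, whereas DMSO was the control of the Western blots, so an effect of vehicle cannot be told apart from that of Erastin. All libraries come from 1 cell line. The labels number the replicates but do not say whether they were separate cultures, so p-values measure only the spread between these libraries, which may be technical.

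NRF2 is held at a low level by KEAP1, an adaptor that brings it to the ubiquitin ligase of CUL3 for degradation. Oxidants and electrophiles modify cysteines of KEAP1, and NRF2 then accumulates, pairs with small MAF proteins and binds antioxidant response elements near its target genes. BACH1 occupies the same elements as a repressor and is released by heme. NRF2 is therefore controlled to a large extent at the protein level, which RNA-seq does not measure. NQO1 reduces quinones to hydroquinones, and the aldo-keto reductases use NADPH to reduce aldehydes and ketones, among them products of lipid peroxidation.

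The libraries held between 29412656 and 31513519 counts. After normalization by the TMM method of edgeR, 16751 genes were tested with the edgeR quasi-likelihood test, with p-values adjusted by the Benjamini-Hochberg method over all of them. A gene is named as called where its log2 fold change reached 1 or −1 and its adjusted p was under 0.05, and as having risen or fallen where the adjusted p alone was under 0.05. Of 6 markers of a mesenchymal glioma line, FN1 (fibronectin), VIM and CD44 were abundant, whereas NES and SOX9 averaged 36.5 and 15.1 CPM (counts per 1000000, TMM-scaled) in control libraries. The summed level of the 6 went from between 9097 and 9501 CPM in control libraries to between 3278 and 3493 CPM in Erastin libraries. In CPM this was mostly through FN1, with 151697 and 168464 counts in control and 14138 and 16332 in Erastin libraries. FN1, NES and SOX9 were called lower, with log2 fold changes of −3.39, −3.62 and −1.26. VIM and CD44 fell by less, with −0.60 and −0.36, and CD99 did not pass (edgeR adjusted p = 0.140). Of 7 astroglial and oligodendroglial markers, AQP4 and SOX10 had no count in any library, and the 7 together reached at most 5.35 CPM. The summed level of 5 neuron markers was 64.4 to 69.5 CPM in control and 25.97 to 27.01 CPM in Erastin libraries. There SNAP25 went from 1070 and 1215 to 95 and 135 counts and SYT1 from 532 and 562 to 281 and 269. GAD1 did not fall (361 and 377, then 421 and 400), and RBFOX3 and SLC17A7 had 10 counts or fewer in every library. For 7 leukocyte and endothelial markers the sum was 5.27 to 6.79 and 2.31 to 2.80 CPM, with CD3E at 0. PECAM1 fell from 138 and 188 to 31 and 33 counts, whereas VWF rose from 4 and 4 to 17 and 32. The sum of 7 epithelial and hepatocyte markers stayed below 1 CPM, with CDH1, KRT5, KRT14 and APOA1 at 0. The part of these shifts in the results below was not tested. In bulk RNA, fewer cells of a kind and less RNA per cell cannot be told apart.

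Of the 10 genes, 6 rose and 4 fell in Erastin-treated U87MG cells, and both Erastin libraries lay outside the range of the control libraries for each of them. Across all genes tested, 23.2% rose and 23.7% fell at that threshold, and without overlap 36.7% were higher and 36.9% lower. With the threshold on the fold change, OSGIN1 and KEAP1 were called higher, against 6.24% of all genes. AKR1C1, AKR1C2 and AKR1C3 were called lower, against 9.34% of all genes. NFE2L2, NQO1, AKR1B10 and BACH1 rose and AKR1B1 fell by less than that. The median log2 fold change was 0.42 over the 10 genes, beside −0.0026 over all genes tested.

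**Figure D1:**
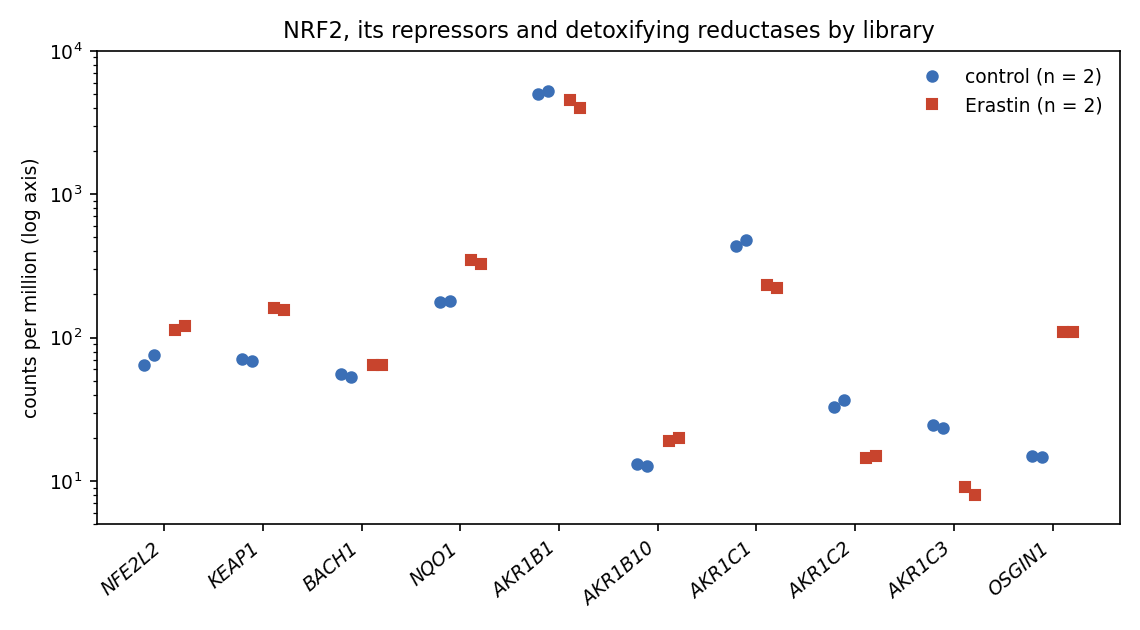
Level of each of the 10 genes in CPM (TMM-scaled, log axis) in the 2 control libraries (blue circles) and the 2 Erastin libraries (red squares), each point 1 library. The groups do not overlap for any gene, and the 3 AKR1C genes lie lower and OSGIN1 and KEAP1 higher in Erastin-treated cells.

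NFE2L2 (ENSG00000116044) lies on chromosome 2 of GRCh38 from 177227595 to 177392697 on the minus strand. It had 64.8 and 75.5 CPM in the control libraries and 113 and 121 CPM in the Erastin libraries. Both treated libraries were thus above both controls, and the control libraries lay somewhat further apart than the treated ones. The mean rose from 70.1 ± 7.59 to 117 ± 5.13 CPM (SD, n = 2 each), 0.74 on the log2 scale (SE 0.0845, edgeR adjusted p = 2.16e-05). An unnamed gene on the same strand, ENSG00000213963, shares 1054 exon bases with NFE2L2, or 17.6% of its exon length, and had 65 and 120 counts in control and 117 and 132 in Erastin libraries. Reads on bases shared by both genes were not counted for either. Since the counting ignored strand, the same holds for 190 exon bases shared with ENSG00000222043 and 54 shared with AGPS, both on the opposite strand.

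KEAP1 (ENSG00000079999), the cysteine-rich sensor that targets NRF2 for degradation, lies on chromosome 19 from 10486120 to 10503741 on the minus strand. Its level was 70.6 and 68.7 CPM in control cells and 161 and 155 CPM in Erastin-treated cells, with the replicates close together in both groups. The mean rose from 69.6 ± 1.33 to 158 ± 4.17 CPM (SD, n = 2 each), a 2.27-fold change (1.18 on the log2 scale, SE 0.0688, edgeR adjusted p = 7.60e-08). Its fitted change was larger than that of NFE2L2. The ratio of KEAP1 to NFE2L2 counts, which does not depend on scaling, was 1.09 and 0.910 in control libraries and 1.42 and 1.29 in Erastin libraries. The groups did not overlap, but with 2 libraries a side the smallest two-sided p of an exact permutation is 0.333.

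BACH1 (ENSG00000156273), the repressor that competes with NRF2 for the same elements, lies on chromosome 21 from 29194071 to 29630751 on the plus strand. It had 55.4 and 53.5 CPM in control and 64.2 and 64.4 CPM in Erastin libraries, without overlap. This was the smallest rise among the 10 genes, with 0.24 on the log2 scale (SE 0.0764, edgeR adjusted p = 0.0224). DESeq2 gave it 0.24 with an adjusted p of 0.0525. Adjusted p-values from edgeR were 0.0760 without control replicate 2, 0.105 without Erastin replicate 1 and 0.0979 without Erastin replicate 2. The ratio of BACH1 to NFE2L2 counts was 0.855 and 0.709 in control and 0.567 and 0.534 in Erastin libraries, so NFE2L2 RNA gained on BACH1 while KEAP1 RNA gained on NFE2L2.

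Reference promoters, from 250 bases before to 50 bases after an annotated start, were available from RefSeq (GRCh38.p14) for 9 of the 10 genes, at 15 starts, with no entry for AKR1B10. They were searched on both strands for TGACNNNGC, a core of the antioxidant response element, and for TGACTCA, the AP-1 element, which such a core can contain. TGACNNNGC occurs in 13.3% of the 35116 promoters in the table and TGACTCA in 4.95%. TGACNNNGC was found in 1 of the 15 promoters, the second of 2 listed for KEAP1, with matches that begin at position −54 on the gene strand and −31 on the other. TGACTCA was found in a promoter of BACH1, at position −48 on the other strand, and in that of OSGIN1, at −97 on the gene strand. These 3 promoters are shown because they hold the matches, which are in capitals. They lie at chr19:10502722-10503021 on the minus strand for KEAP1, chr21:29298672-29298971 on the plus strand for BACH1 and chr16:83952990-83953289 on the plus strand for OSGIN1.
KEAP1: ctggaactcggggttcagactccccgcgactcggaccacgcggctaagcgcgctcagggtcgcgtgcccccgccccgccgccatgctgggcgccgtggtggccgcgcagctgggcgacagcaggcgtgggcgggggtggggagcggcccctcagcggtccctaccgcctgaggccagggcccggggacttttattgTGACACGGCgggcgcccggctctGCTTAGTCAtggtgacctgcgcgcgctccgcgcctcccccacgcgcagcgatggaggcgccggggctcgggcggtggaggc
BACH1: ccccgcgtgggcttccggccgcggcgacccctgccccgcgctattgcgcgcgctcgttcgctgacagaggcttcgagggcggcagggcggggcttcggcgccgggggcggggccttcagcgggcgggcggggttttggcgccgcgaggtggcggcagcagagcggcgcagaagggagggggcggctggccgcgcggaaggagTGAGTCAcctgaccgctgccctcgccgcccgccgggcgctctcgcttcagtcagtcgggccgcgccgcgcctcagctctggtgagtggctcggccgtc
OSGIN1: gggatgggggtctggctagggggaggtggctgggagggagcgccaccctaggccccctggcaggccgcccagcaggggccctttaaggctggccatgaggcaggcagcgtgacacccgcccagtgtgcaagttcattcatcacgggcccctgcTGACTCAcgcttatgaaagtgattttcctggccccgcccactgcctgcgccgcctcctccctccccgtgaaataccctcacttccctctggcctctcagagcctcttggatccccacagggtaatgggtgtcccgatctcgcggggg
Neither motif was found in the windows of NFE2L2, NQO1, AKR1B1 or the AKR1C genes, which says only that these letters are not between 250 bases before and 50 bases after these starts. A match describes the reference sequence, and binding was not measured in the data used here.

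OSGIN1 (ENSG00000140961), an oxidative stress-induced growth inhibitor, lies on chromosome 16 from 83948282 to 83966332 on the plus strand and showed the largest change of the 10 genes. It had 455 and 460 counts in control libraries and 3261 and 3422 in Erastin libraries, or 14.9 and 14.8 CPM against 109 and 109 CPM. The 2 groups were far apart, and the replicates of each were nearly equal. The change was 7.34-fold, 2.88 on the log2 scale (SE 0.0824, edgeR adjusted p = 3.98e-10), and rank 174 of the 16751 genes ordered by log2 fold change. Leaving out each library in turn kept it between 2.86 and 2.88. ENSG00000260300 shares 481 exon bases with OSGIN1 on the same strand and had at most 22 counts in a library.

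Over all tested genes averaging 10 CPM or more, those whose centred log2 CPM over the 4 libraries lay closest to OSGIN1 were GDF15, CHAC1 and ATF5, at Euclidean distances of 0.0962, 0.204 and 0.205. GDF15, which encodes a stress cytokine, had 2282 and 2252 counts in control and 17170 and 16525 in Erastin libraries. CHAC1, whose product degrades glutathione, and ATF5, a transcription factor of the stress response, had log2 fold changes of 2.76 and 3.01. With 4 libraries in 2 groups, the likeness rests mainly on the size of the change.

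NQO1 (ENSG00000181019), the quinone reductase that is widely used as a readout of NRF2, lies on chromosome 16 from 69706996 to 69726951 on the minus strand. It had 176 and 180 CPM in control and 345 and 328 CPM in Erastin libraries. The mean went from 178 ± 3.01 to 336 ± 12.5 CPM (SD, n = 2 each), so the treated libraries lay well above the controls. The log2 fold change of 0.92 (SE 0.0656, edgeR adjusted p = 4.41e-07) was within 2 standard errors of the threshold of 1. It lay between 0.88 and 0.97 under the 12 alternatives, below the threshold in each. A gene on the opposite strand, ENSG00000261602, shares 575 exon bases with NQO1, 17.7% of its exon length, and had no count in any library. Since the counting ignored strand, reads on the shared bases were lost from NQO1 in both groups.

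**Figure D2:**
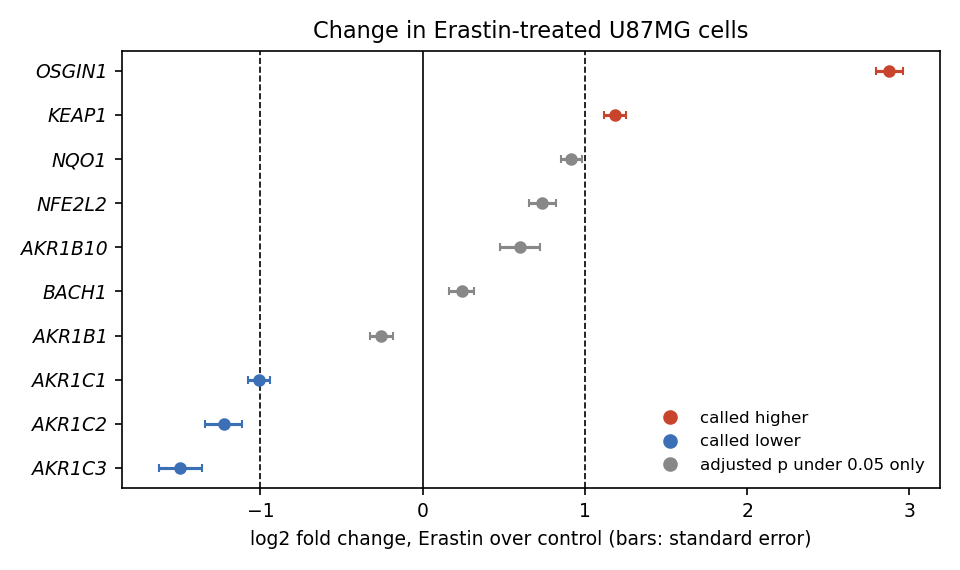
Log2 fold change of Erastin over control for the 10 genes from edgeR, with bars of 1 standard error, dashed lines at −1 and 1, and colours for genes called higher (red), called lower (blue) or with an adjusted p under 0.05 only (grey). OSGIN1 stands apart at 2.88, NQO1 lies just inside the upper line, AKR1C1 lies at the lower line, and AKR1C3 is lowest at −1.49.

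The AKR1C genes encode hydroxysteroid dehydrogenases that also reduce reactive aldehydes and ketones, and all 3 moved opposite to NQO1. They lie in 1 cluster on chromosome 10, AKR1C1 (ENSG00000187134) from 4963253 to 4983283 on the plus strand, AKR1C2 (ENSG00000151632) from 4987400 to 5018031 on the minus strand, and AKR1C3 (ENSG00000196139) from 5035354 to 5107686 on the plus strand. AKR1C1 and AKR1C2 differ at 19 of 972 coding bases (98.0% identity), and AKR1C3 differs from AKR1C1 at 83 (91.5% identity). The stretch of the second coding exon below covers coding bases 85 to 174. Among windows of 90 bases that cross no exon boundary, it has most differences between AKR1C1 and AKR1C2. It is shown because reads can be told apart only by such bases. Capitals mark positions where the 3 reference sequences (GRCh38, GENCODE release 44) are not all the same. The stretches lie at chr10:4965914-4966003 on the plus strand, chr10:5001592-5001681 on the minus strand and chr10:5096410-5096499 on the plus strand.
AKR1C1: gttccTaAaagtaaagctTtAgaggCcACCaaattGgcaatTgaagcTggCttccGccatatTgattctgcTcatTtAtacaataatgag
AKR1C2: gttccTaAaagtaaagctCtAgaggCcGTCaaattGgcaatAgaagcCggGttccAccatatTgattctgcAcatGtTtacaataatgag
AKR1C3: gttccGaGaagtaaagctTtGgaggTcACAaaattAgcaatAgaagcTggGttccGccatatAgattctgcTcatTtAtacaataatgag
In this stretch AKR1C2 differs from AKR1C1 at 10 bases and AKR1C3 at 9. Elsewhere AKR1C1 and AKR1C2 share a coding run of 189 identical bases. Of the 31-base words of the canonical transcript, 29.1% in AKR1C1, 59.3% in AKR1C2 and 26.8% in AKR1C3 also occur in transcripts of other genes. Within the coding sequence alone these shares were 71.1%, 70.7% and 32.9%. Of 150-base words of the whole transcript, the shares were 7.91%, 17.2% and 2.12%. The counting left out reads with several matches, so the values of the 3 paralogs are incomplete, and how far they share reads was not tested.

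AKR1C1 was the most abundant of the 3, with 13375 and 14925 counts in control and 6957 and 7011 in Erastin libraries. In CPM it had 437 and 480 in control and 233 and 223 in treated cells, so both treated libraries were about level with each other and well below the controls. By edgeR the change was −1.01 on the log2 scale (SE 0.0697, adjusted p = 3.28e-07), at the very edge of the threshold. It moved to −0.95 without control replicate 2, to −0.98 without Erastin replicate 2 and to −0.96 with library totals, each past the threshold on p but not on the fold change.

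AKR1C2 had 1009 and 1135 counts in control and 437 and 474 in Erastin libraries, without overlap. It fell from 34.8 ± 2.50 to 14.8 ± 0.336 CPM (SD, n = 2 each), −1.23 on the log2 scale (SE 0.113, edgeR adjusted p = 3.45e-06). AKR1C3, also known as a prostaglandin F synthase, had 756 and 732 counts in control and 272 and 253 in Erastin libraries. Its fall was the largest, from 24.1 ± 0.821 to 8.57 ± 0.737 CPM (SD, n = 2 each), −1.49 on the log2 scale (SE 0.132, edgeR adjusted p = 2.47e-06). AKR1C1 made up 88.3% and 88.9% of the counts of the 3 genes in control and 90.8% and 90.6% in Erastin libraries, whereas AKR1C3 went from 4.99% and 4.36% to 3.55% and 3.27%. The ratio of AKR1C1 to NQO1 counts went from 2.48 and 2.66 in control to 0.674 and 0.681 in Erastin libraries. AKR1C1 thus had more counts than NQO1 in each control library and fewer in each treated one. Neither the shares nor this ratio are corrected for exon length (8765 bases for AKR1C1, 3254 for NQO1), so they do not rank the genes by level. The shares also lack reads with several matches. Levels per kilobase are given below.

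The RefSeq promoters of AKR1C1 and AKR1C2 are nearly the same sequence, with 288 identical bases among 292 aligned and an unbroken run of 245 bases. Against the first of 2 promoters listed for AKR1C3, AKR1C1 had 78.0% identity. The promoter of AKR1C1 (GRCh38.p14, chr10:4963165-4963464, plus strand) is shown with that run in capitals, as the longest sequence the 2 windows share. The AKR1C2 window (chr10:5003808-5004107, minus strand) holds the same run. Between AKR1C1 and the first listed window of AKR1C3 the longest shared run is 18 bases. The second window of AKR1C3 (chr10:5094164-5094463) was not compared, although it lies nearer to the coding exon shown above than the first (chr10:5048531-5048830). The values for AKR1C3 thus hold for the first window only. Any link between promoter sequence and the fall of the 3 genes was not tested.
AKR1C1: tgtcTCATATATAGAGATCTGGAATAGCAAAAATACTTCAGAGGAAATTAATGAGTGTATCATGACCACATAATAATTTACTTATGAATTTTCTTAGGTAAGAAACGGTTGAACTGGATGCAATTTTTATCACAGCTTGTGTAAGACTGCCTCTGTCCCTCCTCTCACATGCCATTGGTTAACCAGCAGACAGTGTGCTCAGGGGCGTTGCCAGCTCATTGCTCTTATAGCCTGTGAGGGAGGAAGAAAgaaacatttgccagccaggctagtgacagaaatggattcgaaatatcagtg
Of the other genes within 200000 bases of the cluster, only LINC02561 and the pseudogene AKR1C7P could be tested, and neither passed (edgeR adjusted p = 0.288 and 0.773). AKR1C4, the liver member of the subfamily, had 0 and 0 counts in control and 6 and 9 in Erastin libraries and was not tested.

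The subfamily 1B genes moved in different directions. AKR1B1 (ENSG00000085662), the aldose reductase that turns glucose into sorbitol, lies on chromosome 7 from 134442350 to 134459284 on the minus strand and was by far the most abundant of the 10 genes. It had 4970 and 5236 CPM in control and 4557 and 4000.01 CPM in Erastin libraries, so the treated libraries lay below the controls but spread widely. By edgeR the change was −0.25 on the log2 scale (SE 0.0728, adjusted p = 0.0130). Without Erastin replicate 2 it was −0.16 with an adjusted p of 0.142. Over its 12 alternatives the log2 fold change ran from −0.35 to −0.16.

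AKR1B10 (ENSG00000198074), which reduces retinal and other aldehydes, lies on the plus strand from 134527592 to 134541408. Its counts were 402 and 394 in control and 569 and 632 in Erastin libraries, 0.60 on the log2 scale (SE 0.125, edgeR adjusted p = 0.00191). Its neighbour AKR1B15, a close paralog from 134549136 to 134579875, went the other way. AKR1B15 had 285 and 243 counts in control but 42 and 74 in Erastin libraries, −2.18 on the log2 scale (SE 0.267, edgeR adjusted p = 3.65e-05). The ratio of AKR1B10 to AKR1B15 counts was 1.41 and 1.62 in control and 13.5 and 8.54 in Erastin libraries. AKR1B10 shares 21.3% of its 31-base words with AKR1B15 but no word of 150 bases with any other gene, so reads could be split between the paralogs where alignments are short. Of the further neighbours tested, BPGM, of red cell glycolysis, fell by 0.84 and SLC35B4, a sugar nucleotide transporter, rose by 0.24 on the log2 scale, whereas LRGUK and LINC03060 did not pass (edgeR adjusted p = 0.989 and 0.599). AKR1B1 and AKR1B10 are 75.3% identical over 951 coding bases, with no identical run longer than 22. Over transcripts of all other genes, however, 20.6% of the 31-base words of AKR1B1 and 36.7% of those of AKR1B10 recur, and no word of 150 bases. Reads with several matches were left out for these genes too.

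**Figure D3:**
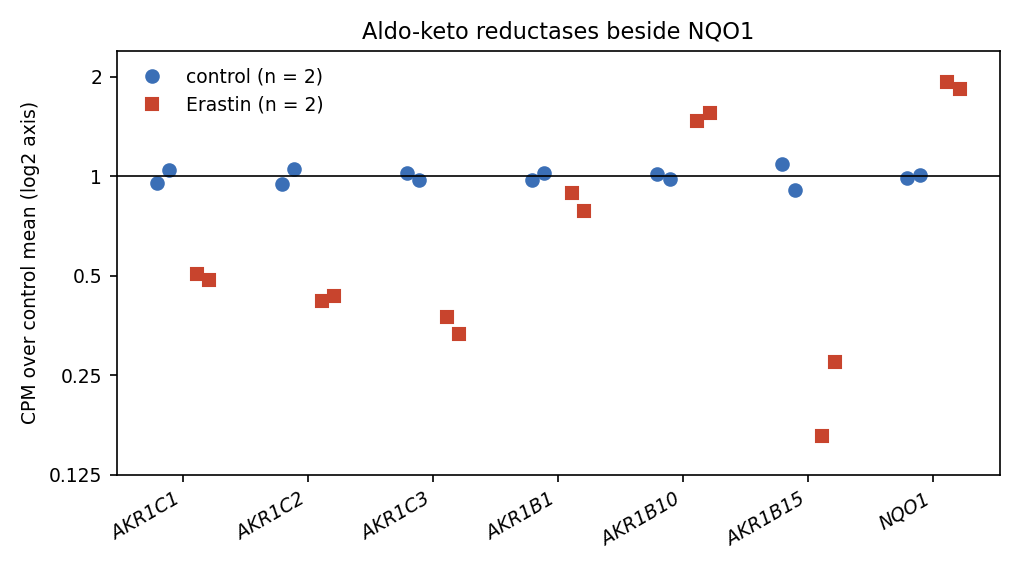
CPM of the aldo-keto reductases and NQO1 in each library divided by the mean of the 2 control libraries (log2 axis, line at 1), with control libraries as blue circles and Erastin libraries as red squares. The 3 AKR1C genes fell to between 0.333 and 0.507 of the control mean, AKR1B15 to 0.164 and 0.275, and AKR1B10 and NQO1 lay above 1.

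Levels were compared between genes as CPM per kilobase of the exon length in the table. In control cells the order was AKR1B1 (1394 ± 51.4), NQO1 (54.8 ± 0.924), AKR1C1 (52.4 ± 3.47), KEAP1 (18.5 ± 0.354), NFE2L2 (11.7 ± 1.27), AKR1B10 (7.41 ± 0.188), BACH1 (7.06 ± 0.168), AKR1C2 (5.38 ± 0.387), AKR1C3 (5.33 ± 0.181) and OSGIN1 (4.29 ± 0.0149), each with SD and n = 2. NQO1 and AKR1C1 overlapped between libraries, as did AKR1C2 and AKR1C3, so the order within these pairs is not settled. In Erastin-treated cells OSGIN1 moved from the last place to the fourth, at 31.5 ± 0.0233 CPM per kilobase, and KEAP1 took the third at 42.1 ± 1.11. AKR1C1 went to the fifth place at 26.0 ± 0.763, and AKR1C2 and AKR1C3 were last at 2.30 ± 0.0521 and 1.89 ± 0.163. With the length of the canonical transcript, an alternative chosen after seeing the data, OSGIN1 was again last in control cells and the fourth in treated cells, but other places changed. In control cells NFE2L2 then had 28.7 ± 3.10 and KEAP1 27.1 ± 0.518 CPM per kilobase, with overlapping libraries, and AKR1C3 stood at 20.4 ± 0.692, above AKR1C2 at 10.8 ± 0.778. AKR1B1 stood at 3750 ± 138, and AKR1C1 took the sixth place in treated cells, behind NFE2L2. The levels and several places in the order thus depend on the gene model.

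The wider pathway was described by 5 lists of 80 genes, of which 71 were tested. Higher calls were made for 13 of them and lower calls for 5, beside 6.24% and 9.34% of all genes tested. By the adjusted p alone 38 rose, 13 fell and 20 did not pass, beside 23.2% and 23.7% of all genes that rose and fell, and the counts of each list below stand against these shares. In the KEAP1 complex and NRF2 turnover, 10 genes were tested, with 5 that rose, 1 that fell and a median of 0.27 on the log2 scale. CUL3, the ligase scaffold, had a log2 fold change of 0.04 (edgeR adjusted p = 0.669), and that of RBX1, its RING subunit, was −0.16 (edgeR adjusted p = 0.270). Of the other route of NRF2 degradation, BTRC, GSK3B and SKP1 rose by 0.66, 0.62 and 0.37 on the log2 scale. FBXW11, the paralog of BTRC, fell by 0.32, and CUL1 had −0.0060 (edgeR adjusted p = 0.953). CUL3, RBX1 and the genes of this other route were named after their values were seen. TRIM16, a ubiquitin ligase reported to act on NRF2, was called higher with a log2 fold change of 1.13.

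SQSTM1 encodes p62, which binds KEAP1 and carries it into autophagosomes. It was the other higher call of that list, with 1011 and 320 counts in control and 10782 and 1317 in Erastin libraries. The first replicate was above the second in each group, and 1011 in control replicate 1 was close to 1317 in Erastin replicate 2. Its log2 fold change of 3.21 went to 0.95 without Erastin replicate 1, which ended the call, and DESeq2 gave an adjusted p of 0.0530.

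Of the 7 small MAF and CNC partners tested, 4 rose and 1 fell, where 23.2% and 23.7% of all genes did so. MAFK, a small MAF that pairs with NRF2 or BACH1, was called higher at 1.14 on the log2 scale, and the CNC factor NFE2 was called lower on 15 and 19 counts in control and 1 and 4 in Erastin libraries. That call was lost without any single library. Of the other NRF2 targets 30 were tested, of which 21 rose and 4 fell, with a median of 0.60. Their highest were SLC7A11, HMOX1, TXNRD1 and SRXN1, at 3.67, 3.36, 2.04 and 2.00 on the log2 scale. The drug exporter ABCC3, named after its values were seen, was the lower call of that list at −1.19. GPX2, GSTM3, UGT1A6 and CES1 had 7 counts or fewer in every library and were not tested.

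Of 7 further aldo-keto reductases tested, 1 rose and 3 fell (median −0.13). AKR1B15 and KCNAB3, a subunit of potassium channels, were called lower, and KCNAB3 lost the call without control replicate 2 or Erastin replicate 1. Of 17 carbonyl and quinone reductases and aldehyde dehydrogenases tested, 7 rose and 4 fell (median 0.0056). TP53I3, a quinone reductase known as a p53 target, was called higher at 3.21, ALDH3B1, an aldehyde dehydrogenase, at 1.22 and DHRS4, a carbonyl reductase, at 1.09. CBR3, a carbonyl reductase, was called lower at −1.14. DHRS4 lost its call without control replicate 2 or Erastin replicate 1, and CBR3 without Erastin replicate 2.

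**Figure D4:**
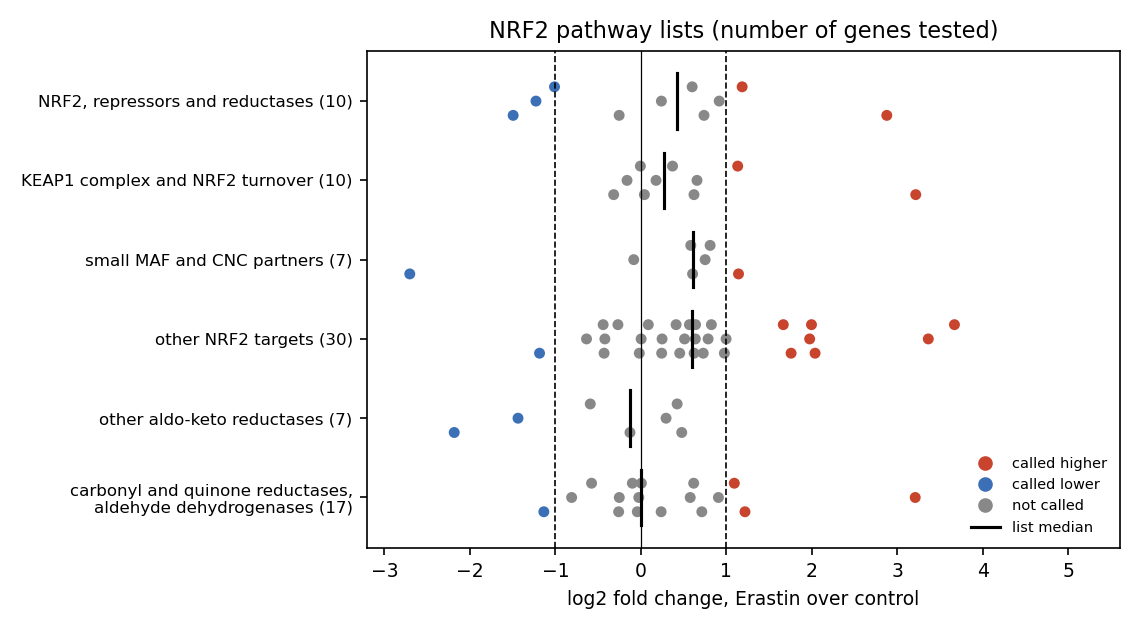
Log2 fold change of Erastin over control for each tested gene of the 10 genes described here (top) and of the 5 pathway lists, with the number tested in brackets, list medians as black bars and dashed lines at −1 and 1. The other NRF2 targets reach 3.67 with a median of 0.60, whereas the median of the carbonyl and quinone reductases is 0.0056 and that of the other aldo-keto reductases is −0.13.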

How the data were processed

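RNA-seq counts of 2 control and 2 Erastin libraries were used, grouped by their labels. Reads were aligned by the authors to hg38 with HISAT2 (2.1.0 in the submitters' notes). The deposited values are raw counts per gene, written per the file headers by featureCounts 2.0.3 with the Ensembl release 90 annotation. The options set were paired input, both ends mapped and no chimeric pairs. No option was set for strand, multi-mapping, multi-overlap or the counting of pairs as units, so both reads of a pair counted. The methods name htseq-count. The deposited values were also tested for the decimals of estimated counts: rounding changed 0 values in each library. No normalization had been applied.

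The differential test was the two-sided quasi-likelihood test of edgeR 4.0.16 (R 4.3.3), after filterByExpr with a minimum count of 10 and TMM scaling with factors of 0.971 to 1.02. The biological coefficient of variation was 10.3%, above sampling noise. CPM values are TMM-scaled. Each standard error is the log2 fold change divided by the root of its F value. On simulated data for this comparison, with 200 of 16751 genes changed 2 on the log2 scale, edgeR recovered 195 and called 5 unchanged genes. The noise was drawn from the fitted dispersions, and far fewer genes changed than in the data. With changes of 2 only, the simulation does not show how reliable calls near the threshold of 1 are.

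Symbols were joined by Ensembl identifier for 57532 genes. Promoters came from RefSeq tables, and transcripts and coding exons from GENCODE release 44, both on GRCh38. Genes named were the 10 members, SQSTM1, neighbours of a member and the 3 genes most like OSGIN1. From each pathway list, up to 4 called genes with the largest change were named. Genes of the fixed marker lists, and pathway genes too low to test, were named by no fixed rule. The remaining genes are said to have been named after their values were seen. The members and lists were chosen with earlier results of these data known. Alternatives were DESeq2 1.42.0, other scalings and filters, a replicate block, glmTreat, counts divided by 2 and each library left out. ChIP-seq and HiChIP data were not analysed here. Totals overstate precision, since PCR reads without molecular identifiers are not independent molecules.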

Additional observations from a re-analysis of the deposited data

How the results depend on the processing

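The direction of each of the 10 genes was the same under all 12 alternatives, and 115 of 120 log2 fold changes kept their call, or its absence, by fold change and adjusted p together. The exceptions were AKR1C1, at −0.95 and −0.98 without control replicate 2 and Erastin replicate 2, −0.96 with library totals and not called by glmTreat, and AKR1C2, not called by glmTreat. By the adjusted p alone, 10 genes passed, 9 with DESeq2, between 8 and 10 with a library left out and 3 with glmTreat. BACH1 was lost with DESeq2 (0.0525) and without control replicate 2, Erastin replicate 1 or Erastin replicate 2 (0.0760, 0.105 and 0.0979), and AKR1B1 without Erastin replicate 2 (0.142). Higher calls stayed at 2 of the 10 genes throughout. Lower calls numbered 3, between 2 and 3 with a library left out, 2 with library totals and 1 with glmTreat, which tests the fold change itself against the threshold. Over all genes, glmTreat called 377 higher and 748 lower, against 1046 and 1564. Among the 80 genes of the pathway lists, lower calls went from 5 to 3 with DESeq2, to 1 with glmTreat and to between 3 and 4 with a library left out. The labels number the replicates without naming a pairing, and same-numbered libraries deviated from their groups with r = 0.0203 over genes, which are no replicates. Under a replicate block 1039 genes were higher and 1568 lower, and 2 and 3 of the 10 genes were called. Library totals moved the median of all genes to 0.0471. With 2 libraries per group the spread of a single gene rests on a variance shared across genes. Low genes such as NFE2 (SE 0.882) are uncertain, and so are genes with unlike replicates such as SQSTM1 (SE 0.750).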
